A study of Mus musculus with 6 samples.

Results

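The genes described here encode the proteins of the cytosolic ribosome. They were taken from the array annotation by symbol: Rpl or Rps, digits and at most one closing letter a, x or l, together with the stalk genes Rplp0, Rplp1 and Rplp2 and with Rpsa. This gave 80 of the 36161 gene names on the array, covered by 180 probes. Of these, 79 genes (48 of the large and 31 of the small subunit) gave signal well above background on 3 or more of the 6 arrays and were tested, and Rpl10l was not. The rule uses names only, and no measured value entered it.

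RNA came from 3 DMBA/TPA-induced skin tumors and 3 biopsies of healthy skin of female FVB/N mice, and each sample was hybridised to its own 1-colour microarray. The tumor mice had DMBA, a mutagen, applied to the skin and then PMA (also called TPA), a phorbol ester that promotes tumors, over 6 weeks and, after further DMBA in week 8, over 14 more weeks. Healthy skin received acetone alone. No DMBA- and PMA-painted skin without a tumor was measured, so the tumor and its treatment cannot be told apart. The labels say that samples were collected throughout the protocol and give no collection time for any one of them, nor do they say whether biopsies came from separate mice, so a p-value speaks only for the spread among these arrays, which may be technical.

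A eukaryotic ribosome joins a small subunit, which reads the messenger RNA, to a large subunit, which forms the peptide bond. Each holds ribosomal RNA and a set of proteins present once per particle, and the genes for these proteins are spread over many chromosomes but are transcribed at closely matched, very high levels. Their messenger RNAs usually begin with an unbroken run of pyrimidines, the 5′ terminal oligopyrimidine or TOP motif, through which the kinase mTORC1 controls how strongly they are translated. That control acts on translation, which an array of RNA levels does not measure. In mouse skin, mutations of Rps19 and Rps20 are known as dark skin alleles, in which keratinocytes with too little ribosomal protein activate p53.

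One sequence feature that the naming rule did not use is a pyrimidine run at the start, found in a minority of the members with a start window. RefSeq start windows on GRCm38.p6 were available for 59 of the 80 genes. An unbroken run of at least 8 letters that were all C or T, read on the gene's own strand within 15 bases either side of an annotated start, occurred in 26 of these 59 genes (44.1%), against 13.9% of all 27025 genes with a window. On the opposite strand the same search matched 5.08% of the 59 genes, against 15.3% of all genes. The window and the run length were chosen after the sequences were seen, and a match is a description of the letters only. Windows of 30 bases are given for members whose values are described below, 5 chosen because they hold a long run and 3 from the tissue-restricted paralogs Rpl3l, Rpl39l and Rpl10l. Capitals mark the longest run of C and T in each.
Rpl13a (chr7:45128731-45128760, minus strand): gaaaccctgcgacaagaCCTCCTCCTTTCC
Rps18 (chr17:33955651-33955680, minus strand): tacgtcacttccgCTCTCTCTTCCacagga
Rps6 (chr4:86857353-86857382, minus strand): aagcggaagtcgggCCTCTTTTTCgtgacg
Rplp2 (chr7:141447636-141447665, plus strand): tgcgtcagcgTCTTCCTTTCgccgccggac
Rps27 (chr3:90213634-90213663, minus strand): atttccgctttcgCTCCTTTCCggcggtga
Rpl3l (chr17:24727811-24727840, plus strand): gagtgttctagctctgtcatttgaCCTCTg
Rpl39l (chr16:10170213-10170242, plus strand): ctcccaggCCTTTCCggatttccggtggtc
Rpl10l (chr12:66284387-66284416, minus strand): tttggCCTCCattttgcggctggcggtggg
The longest run was 9 to 13 letters in the first 5 windows and 5 to 7 letters in the windows of the 3 paralogs. Rpl3l has 2 annotated starts, and the longest run at the other one was 4 letters. A short run is not particular to the paralogs. Among widely expressed members described below, the longest run was 3 letters for Rpl10 and Rpl26, 4 for Rps4x, 5 for Rplp0 and Rpsa and 6 for Rps2.

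Values are log2 processed signals minus the 75th percentile of the same array, so 0 is the signal that 25% of spots exceed and each step of 1 is a doubling. Signal was well above background on all 6 arrays for 78 of the 79 genes. The median over the 79 genes was 8.01, 7.58 and 7.30 on the tumor 1, 2 and 3 arrays, against 7.34, 7.52 and 7.88 on the healthy skin arrays. The groups overlapped, with the highest and the lowest of the 6 medians both on tumor arrays. Together the 79 genes made up 7.17%, 6.68% and 6.58% of the summed signal of all tested features in the tumors, against 7.13%, 7.18% and 7.11% in healthy skin. Subtracting 1 value per array on the log2 scale, as here, leaves these shares unchanged, but quantile normalization can change them. The groups overlapped in these shares as well.

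Few ribosomal protein genes differed between tumor and healthy skin beyond the spread between arrays. Across the 24786 features tested with limma at a Benjamini-Hochberg adjusted p under 0.05, 26.0% differed between tumor and healthy skin, 10.3% higher and 15.7% lower. Of the 79 ribosomal protein genes, 0 were higher and 1, Rpl3l, was lower, which is 1.27%, and 2 had an unadjusted p under 0.05. Higher features made up 39.7% of all calls under the scaling used here, against 62.9% with median scaling, 26.9% with 90th percentile scaling and 64.4% with spike-in scaling. Bright features are called less often on these arrays, since 8.70% of the 793 features with a mean log2 signal of at least 6 passed the same test, against 0 of the 74 ribosomal protein genes that bright. No array of one group lay within the range of the other for 3 of the 79 genes (3.80%), with all tumors above for Rps2 and below for Rpl3l and Rplp0, against 49.7% of all features. That share was not taken over bright features alone. The design of 3 arrays against 3 limits precision for every member.

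The median log2 fold change, tumor minus healthy skin, was -0.04 over the ribosomal protein genes, with an interquartile range of -0.25 to 0.13. Over all features the median was -0.16, with an interquartile range of -0.86 to 0.56. Large and small subunit genes had medians of -0.04 and -0.03. Of the 79 estimates, 35 were above 0 and 44 below, and 71 (89.9%) lay within 0.5 of 0, against 36.7% of all features. Of the members, 74 had a mean log2 signal of at least 6. The share within 0.5 of 0 was not taken over features that bright. The sign of the median follows the scaling of the arrays: it was 0.32 with median scaling, 0.10 with quantile normalization and 0.70 with spike-in scaling, and -0.22 with 90th percentile scaling. Relative to the median of all features it was 0.12, a difference that these scalings other than quantile normalization leave unchanged by construction. Over the other settings that difference ran from -0.09, among features with a mean log2 signal of at least 6, to 0.24, with every probe by itself. Fold changes of single genes and probes, with their intervals and SE, are given below on the log2 scale.

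A p above the threshold does not show that a gene was unchanged, so the intervals matter. The 95% interval of the fold change lay wholly within a 2-fold change in either direction (1 on the log2 scale) for 48 of the 79 genes (60.8%), against 15.4% of all features. This share too was not taken over bright features alone. The median half-width of the interval was 0.75. Without Rpl3l, the estimates of the other 78 genes ran from -0.56 for Rplp0 to 1.45 for Rps2, and their interval bounds reached from -1.76 for Rpl39l to 2.90 for Rps2. The lowest adjusted p among those 78 was 0.121, for Rps2.

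**Figure D1:**
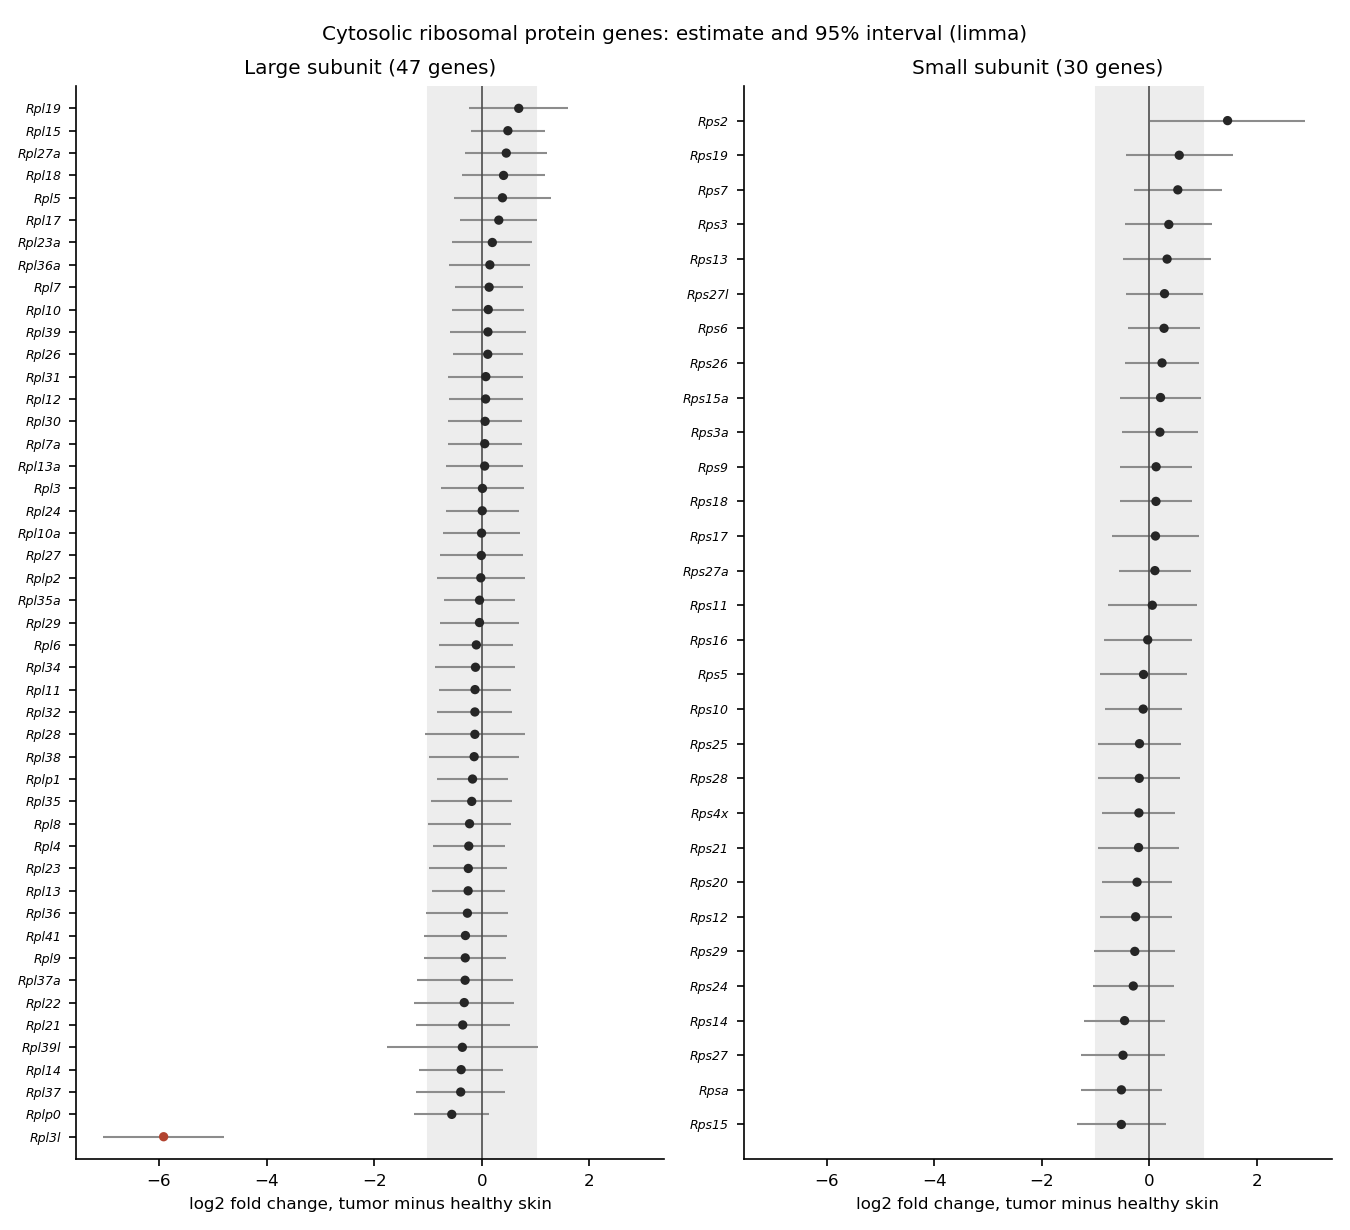
Log2 fold change, tumor minus healthy skin (x axis), of 77 of the 79 tested ribosomal protein genes, with limma's 95% interval as a line and the shaded band marking changes of less than 2-fold. Rpl3l (red) is the 1 gene that passed the test, at -5.91, and the other estimates lie between -0.56 and 1.45.

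None of a panel of 7 members often used to represent the ribosome passed the test. Rplp0, Rplp1 and Rplp2 form the stalk that recruits elongation factors to the large subunit. Rplp0 had log2 signals of 9.04, 8.64 and 8.56 in tumors, against 9.20, 9.07 and 9.65 in healthy skin. All 3 tumors were below all 3 healthy skin arrays, and the fold change was -0.56 (95% interval -1.26 to 0.14, SE 0.30, limma adjusted p = 0.198). That difference did not pass the test, and it was 0.02 with quantile normalization and 0.33 in the authors' deposited values. The gene's other tested probes were at -0.09 and -0.06, with overlapping groups, so Rplp0 has no settled direction. Its stalk partners overlapped between the groups, at -0.17 (interval -0.83 to 0.48) for Rplp1 and -0.02 (interval -0.84 to 0.80) for Rplp2.

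Rpl13a and Rps18 are, with Rplp0, common reference genes for quantitative PCR. Rpl13a had 8.21, 7.64 and 7.46 in tumors, against 7.55, 7.66 and 7.95 in healthy skin, a fold change of 0.05 (interval -0.67 to 0.77). Rps18 had 6.74, 6.33 and 6.08 in tumors, against 6.17, 6.31 and 6.29 in healthy skin, a fold change of 0.12 (interval -0.54 to 0.79). For both, the tumors spanned the whole range of the healthy skin arrays on these, the brightest, probes. The other Rpl13a probe had 5.20, 3.97 and 3.91 in tumors, against 3.27, 3.45 and 3.38 in healthy skin, without overlap. It was at 0.996 (interval 0.07 to 1.92, limma adjusted p = 0.102) and did not pass the test. The other Rps18 probe was at 0.76 (interval -0.40 to 1.93), with overlapping groups. Rps6, the small subunit protein phosphorylated by S6 kinase downstream of mTORC1, was at 0.27 (interval -0.39 to 0.94). Rpsa, a small subunit protein also known as a laminin receptor, was at -0.52 (interval -1.28 to 0.24).

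Rpl7, Rps20 and Rpl26 were the members with the smallest standard errors, 0.27, 0.28 and 0.28. Rps20, of the mouse dark skin alleles, had 8.71, 8.40 and 8.21 in tumors, against 8.53, 8.62 and 8.87 in healthy skin, a fold change of -0.23 (interval -0.88 to 0.42). The groups overlapped through the tumor 1 array. Rpl7 was at 0.14 (interval -0.50 to 0.77) and Rpl26, which in human cells binds the p53 messenger RNA, at 0.11 (interval -0.54 to 0.76).

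The largest estimate above 0 belonged to Rps2, a core protein of the small subunit. It had 7.92, 7.48 and 7.25 in tumors, against 6.68, 7.0 and 4.61 in healthy skin. All tumors were above all healthy skin arrays, and the healthy skin 3 array was well below the others. The fold change was 1.45 (SE 0.62, limma adjusted p = 0.121) and 0.71 (adjusted p = 0.134) without that array. These values hold for the brightest Rps2 probe only. The other tested probe, placed elsewhere on chromosome 17, had 6.47, 6.13 and 5.80 in tumors, against 5.39, 5.47 and 6.05 in healthy skin. Its groups overlapped, healthy skin 3 was the highest healthy skin array, and its fold change was 0.49 (interval -0.26 to 1.25). Rpl19, which forms a bridge between the subunits, had 7.46, 7.58 and 6.95 in tumors, against 6.96, 7.06 and 5.90 in healthy skin, a fold change of 0.69 (adjusted p = 0.226) and 0.32 without the healthy skin 3 array.

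Rpl3l was the exception. It is a paralog of Rpl3 that is expressed in striated muscle, where it takes the place of the ubiquitous protein near the peptidyl transferase centre. Its log2 signal was -4.26, -3.74 and -4.48 in tumors, against 2.11, 2.43 and 0.72 in healthy skin, and the groups were far apart. The probe was well above background on 2 of the 3 tumor arrays and on all healthy skin arrays. Mean log2 signals were -4.16 ± 0.38 in tumors and 1.76 ± 0.91 in healthy skin (SD, n = 3 each). The fold change was -5.91 (95% interval -7.05 to -4.78, SE 0.48, limma adjusted p = 0.000572), and it ran from -6.43 to -4.27 over 20 alternative settings, past the test in each. Rpl3 itself had 7.66, 7.10 and 6.84 in tumors, against 6.92, 7.10 and 7.55 in healthy skin, a fold change of 0.01 (interval -0.77 to 0.79).

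Skeletal muscle markers moved with Rpl3l. All 12 of 12 markers were lower in tumors, against 15.7% of all features, at a median of -4.57 on the log2 scale. The calcium buffer Pvalb was at -6.29 and the muscle enolase Eno3 at -5.40. Their summed signal, in multiples of the 75th percentile signal, was 61.5, 87.9 and 33.1 in tumors, against 1183, 1792 and 1246 in healthy skin. None was at background in healthy skin, and 11 of the 12 were well above background on all tumor arrays. In biopsies, fewer cells of a type and less RNA per cell cannot be told apart, and the part of muscle content in the Rpl3l difference was not tested.

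The first 30 of the 60 bases of the Rpl3l probe, annotated to transcript variant 2 and placed on mm9 at chr17:24872413-24872681 (a span of 269 bases on the genome), are given to identify what was measured. No part of it is marked.
Rpl3l probe: ggctgcattgcaggtaccaagaagcgagtg

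The other tissue-restricted paralogs gave no call. Rpl10l, a testis-expressed retrogene that stands in for the X-linked Rpl10 in male meiosis, was not well above background on any array with either of its 2 probes. Rpl10 was at 0.12 (interval -0.55 to 0.78). Rpl39l, which is most abundant in testis, was dim, at -0.63, -1.44 and -0.25 in tumors, against -1.18, -0.95 and 0.90 in healthy skin. The groups overlapped, and the interval around its fold change of -0.36 ran from -1.76 to 1.04, among the widest of all members. Rpl39 was at 0.11 (interval -0.59 to 0.82).

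Rps27l, a paralog of Rps27 that p53 induces in human cells, had 5.81, 5.46 and 5.27 in tumors, against 4.95, 5.14 and 5.60 in healthy skin. Its fold change was 0.28 (interval -0.44 to 1.0). Rps27 had 8.05, 7.61 and 7.46 in tumors, against 7.88, 8.03 and 8.68 in healthy skin, a fold change of -0.49 (interval -1.26 to 0.28). Both overlapped between the groups. All 4 Rps27 probes are placed by the array annotation on mm9 chromosome 9, which is not the chromosome of the RefSeq gene. Rps4x, the X-linked small subunit gene, was at -0.19 (interval -0.87 to 0.49).

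**Figure D2:**
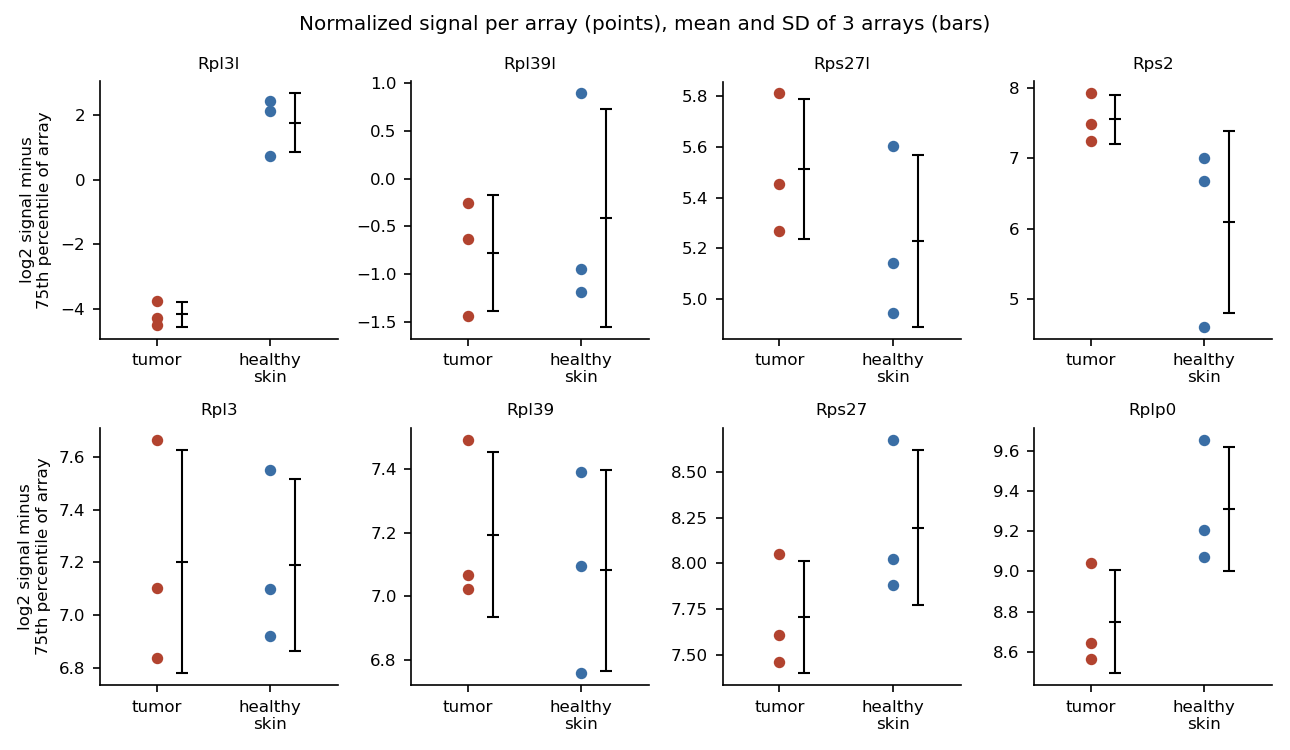
Log2 signal minus the array's 75th percentile (y axis, a scale of its own in each panel) for 3 paralogs above their widely expressed partners, and for Rps2 and Rplp0, with tumors in red left of healthy skin in blue and bars for mean and SD of 3 arrays. Rpl3l falls to -4.16 in tumors, against 1.76 in healthy skin, while Rpl3 averages 7.20 in tumors and 7.19 in healthy skin.

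Several probes measure most of these genes, which shows how far a gene's value depends on where it is read. Among the 54 genes with at least 2 tested probes, the fold changes of a gene's probes spanned a median of 0.46 on the log2 scale, under 0.5 for 32 genes and over 1 for 10. When each of the 34284 probes was its own feature, 26.0% were called, and of the 176 ribosomal protein probes 1 was higher and 3 were lower. Besides the Rpl3l probe, the lower ones were single probes of Rps24 and Rpl22, whose other probes did not pass. Processed pseudogenes are common in this family, and 12 probes of 6 genes are placed on another chromosome than the gene, so signal from near-identical copies cannot be separated.

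Rps24 encodes a small subunit protein, and its messenger RNA is known for alternative splicing of short exons at the end of the coding region. The probe annotated to transcript variant 1 had 4.76, 4.90 and 5.58 in tumors, against 6.91, 7.30 and 7.71 in healthy skin. All tumors were below all healthy skin arrays, and the fold change was -2.23 (SE 0.35, limma adjusted p = 0.00522). Its 60 bases are spread over 2321 bases of the genome, at chr14:25312695-25315015 on mm9, so it spans at least 1 splice junction. The other 3 probes were at 0.01 for the one annotated to transcript variant 2, -0.45 for the one annotated to variant 3, which starts past a gap of 5 bases, and -0.30. The log2 ratio of the variant 1 probe to the mean of the others differed by -1.98 between tumor and healthy skin, with no overlap. An exact two-sided permutation test gave p = 0.1, the smallest that 3 against 3 allows. The probe was picked for its call on these same arrays, so this test adds no separate support. Both stretches are the first 30 bases of the probes annotated to variants 1 and 2, shown without marking.
Rps24 variant 1 probe: aatgttggtgctggcaaaaagtgagtggag
Rps24 variant 2 probe: tggccattatgagaagaaaaagacctcccg

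Rpl22 encodes an RNA-binding protein of the large subunit. Its probe at chr4:151708012-151708071 on mm9 had 1.84, 0.88 and 0.89 in tumors, against 3.25, 3.48 and 3.84 in healthy skin, a fold change of -2.32 (SE 0.36, limma adjusted p = 0.00496). All tumors were below all healthy skin arrays. The gene's other probe lies upstream, past a gap of 1437 bases, and was at -0.33 (interval -1.25 to 0.60), with overlapping groups. The log2 ratio of the first probe to the second differed by -2.00 between the groups (exact two-sided permutation test p = 0.1, the smallest possible). This probe too was picked for its call on these arrays, so the test adds no separate support.
Rpl22 downstream probe, first 30 bases: gctgtaaacaacattaaccctgggttgatt

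**Figure D3:**
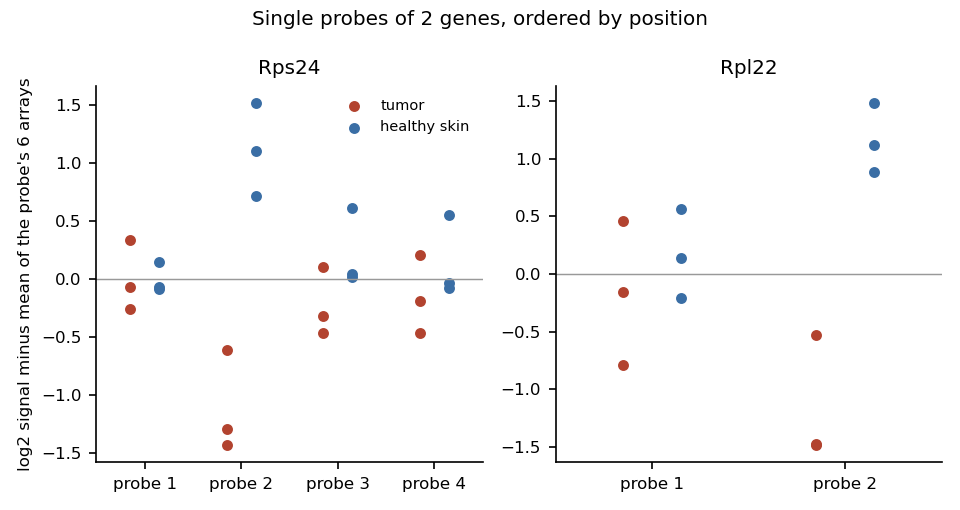
Log2 signal of each tested probe of Rps24 and Rpl22 on each array, minus the mean of that probe's 6 arrays (y axis), with tumors in red left of healthy skin in blue and probes numbered by genome position. Rps24 probe 2, annotated to variant 1, and Rpl22 probe 2 are lower in all tumors, and the groups overlap for the other probes of these genes.

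Genes that assemble the ribosome without staying in it were called about as often as all features. Of 48 ribosome biogenesis genes, 14 (29.2%) were higher in tumors and 0 lower, beside 26.0% of all features called, 10.3% higher and 15.7% lower, at a median of 0.88 on the log2 scale, against -0.16 over all features. Nop16, a nucleolar protein needed for the large subunit, had 2.30, 1.55 and 1.23 in tumors, against -0.11, -0.19 and -1.43 in healthy skin, a fold change of 2.27 (SE 0.46, limma adjusted p = 0.0126). Ddx21, a nucleolar RNA helicase, had 3.19, 2.86 and 2.80 in tumors, against 0.59, 0.67 and 0.90 in healthy skin, a fold change of 2.23 (SE 0.27, adjusted p = 0.00193). The groups were apart for both, and the count of higher genes ranged from 4 with spike-in scaling to 29 with median scaling. It was 5 without tumor 1 or tumor 2 and 6 without healthy skin 2.

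Translation initiation genes gave 8 higher and 1 lower of 29, with a median of 0.54. This is 31.0% called, near the 26.0% of all features (10.3% higher and 15.7% lower). The count of higher genes ranged from 0 to 11 over the alternative settings. Eif5a, which carries the hypusine residue, was at 1.75 (SE 0.48) and Eif3c, a subunit of the factor that binds the small subunit, at 1.59 (SE 0.42), while Eif4a2, an RNA helicase, was lower, at -1.13 (SE 0.30). Mitochondrial ribosomal protein genes, which build the separate ribosome of that organelle, gave 6 higher and 1 lower of 75, with a median of 0.45. This is 9.33% called, below the 26.0% of all features, and the count of higher genes ranged from 1 to 26 over the alternative settings. Mrps11 was at 1.89 (SE 0.53) and Mrpl17 at 1.50 (SE 0.32), and the gene that fell was Mrpl35, at -1.04 (SE 0.28).

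Genes whose messenger RNAs share the TOP motif or that work beside the ribosome in elongation gave 1 of 14 higher, 0 lower and a median of 0.06. This is 7.14% called, against 26.0% of all features. Estimates ran from -0.48 for Tpt1 to 1.34 for Pabpc1. Eef1a1, the main elongation factor, was at -0.19 (interval -0.86 to 0.49) and Tpt1 at -0.48 (interval -1.16 to 0.19). Npm1, a nucleolar chaperone, was at 0.77 (interval 0.04 to 1.49), with all tumors above all healthy skin arrays, and Eef1b2, an exchange factor for Eef1a1, at 0.77 (interval -0.11 to 1.65); neither passed the test. The gene that passed was Pabpc1, the poly(A)-binding protein, with 7.89, 7.54 and 7.01 in tumors, against 6.21, 6.34 and 5.87 in healthy skin (fold change 1.34, SE 0.33, adjusted p = 0.0235). Its groups did not overlap. Among 8 relatives of ribosomal proteins that the naming rule leaves out, Rpl7l1, a factor of large subunit assembly, was higher at 1.43 (SE 0.31), and 0 were lower. That is 12.5% called, against 26.0% of all features. Gnb2l1, which encodes the small subunit scaffold RACK1, was at -0.12 (interval -0.79 to 0.54).

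Of 16 growth regulators of ribosome production, 3 were higher and 2 lower, a share called near that of all features. Mxd1, a partner of Max that opposes Myc, was at 2.66 (SE 0.31), Eif4ebp1, the mTORC1 target that restrains cap-dependent initiation, at 1.55 (SE 0.41), and Myc at 1.33 (SE 0.33). Tsc2, an inhibitor of mTORC1, was at -1.21 (SE 0.34) and Sesn1 at -1.13 (SE 0.30). Tsc2 was dim on every array.

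Mitosis and S phase markers gave 7 of 12 higher and 0 lower, with a median of 1.55. This is 58.3% called, against 26.0% of all features (10.3% higher and 15.7% lower). The summed signal of these markers ranged from 78.7 to 145 in tumors, against 38.2 to 44.9 in healthy skin. Keratinocyte markers, all 9 well above background on every array, gave 2 higher and 3 lower, which is 55.6% called. Among the other cell types of a skin biopsy, adipocyte markers gave 5 of 6 lower (83.3% called) and immune cell markers 3 higher and 3 lower of 9 (66.7%). Fibroblast markers gave 1 higher and 1 lower of 6 (33.3%) and endothelial markers 1 higher of 5 (20%), both near the share of all features. Hair shaft markers gave 0 of 6. The part of cell composition in the differences between these lists was not tested.

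**Figure D4:**
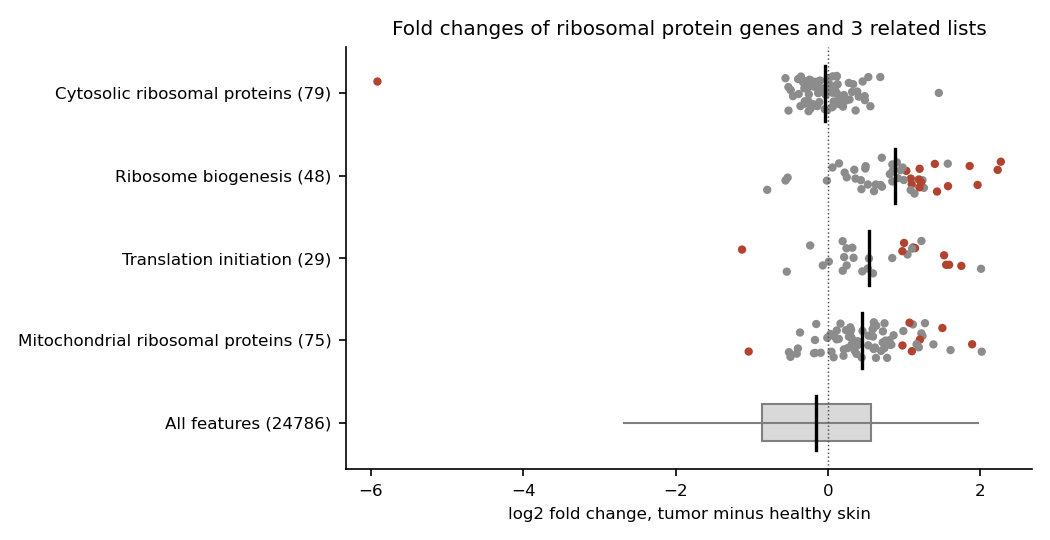
Log2 fold change, tumor minus healthy skin (x axis), of each tested gene of 4 lists (points, red where the gene passed the test; spread vertically for visibility), with a black bar at each list's median. All features are drawn as a box over the interquartile range with a line between percentiles 5 and 95; the ribosomal protein genes cluster at a median of -0.04, against 0.88 for ribosome biogenesis genes.

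The ribosomal protein genes also tracked single arrays. The tumor 1 array held the highest of the 3 tumor values for 73 of the 79 genes, against 46.2% of all features. Healthy skin 3 held the highest healthy skin value for 59 of the 79, against 56.2% of all features, and the highest of all 6 for 37. The median background of tumor 1 was 85 intensity units and that of every other array 23 to 26, and healthy skin 3 the lowest 75th percentile signal, 242 against 525 to 897. In healthy skin 3 the members moved apart by brightness: relative to the mean of healthy skin 1 and 2, the median difference was 0.61 for the 25 genes with a mean log2 signal of at least 8, 0.36 for the 33 between 7 and 8, and 0.07 for the 21 below 7.

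A small set of bright members, each read by its brightest probe, went against this on healthy skin 3. Among the 76 genes with a mean above 4, 7, with Rps2, Rps19, Rpl19, Rpl5, Rps7 and Rpl17 among them, were between -2.23 and -0.52 on that array relative to the others, whereas 37 members were more than 0.5 higher. Without healthy skin 3, the call of Rpl3l stayed and 0 genes were higher. Without both that array and tumor 1, the outcome was the same, 0 higher and Rpl3l lower, and the median over the members was -0.07. Why these probes differ on that array was not tested.

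**Figure D5:**
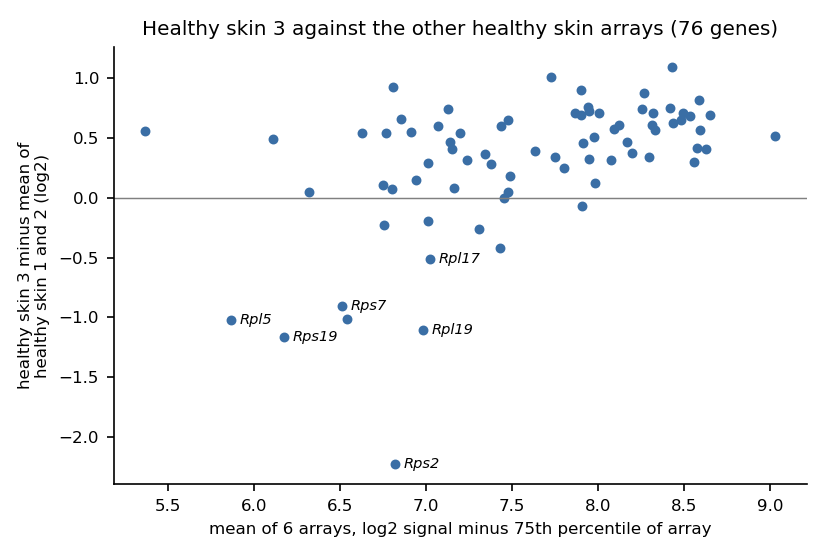
Log2 signal on the healthy skin 3 array minus the mean of healthy skin 1 and 2 (y axis), against the mean of all 6 arrays (x axis), for the 76 ribosomal protein genes with a mean above 4. Each gene is read by its brightest probe. The labelled genes lie between -2.23 and -0.52, and most brighter genes lie above it.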

How the data were processed

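Per the labels and file headers, total RNA was labelled with Cy3 and hybridised to 1-colour Agilent arrays of 62976 spots, and Agilent Feature Extraction 10.7.3.1 made the deposited intensity values, with a fitted background subtracted. The deposited series table holds the authors' log2 values, which rank spots as the raw median signal does (Spearman correlation 1 on each array) with column medians of 6.33 to 6.35. For its centring and background handling, the sources used here name no method. Limma is named in the submitters' processing notes, with no version.

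Each array's 75th percentile, taken over its 59305 non-control spots, was subtracted from the log2 processed signals. Outlier spots were left out, which removed 180 of 55681 probes, and 0 spots were saturated. Probes well above background on at least 3 arrays (34284) were kept, and the brightest probe stood for each array gene name, giving 24786 features. Array gene names and mm9 probe positions were used as in the files. Start windows came from RefSeq (GRCm38.p6).

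Tumor and healthy skin were set against each other in limma 3.58.1 under R 4.3.3 (lmFit, eBayes, two-sided, Benjamini-Hochberg over all features), without a block. Intervals are 95% intervals of the fit, and SD and n refer to arrays. The script was checked on simulated data. The number of arrays, 3 in each group, limits the precision.

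The members and all gene lists were chosen with earlier results of these data known, so no list was tested as a set. Named members were those past the test, the 3 with the smallest and the 3 with the largest standard errors, a panel of 7 genes, the paralogs with their partners, genes that failed the filter, and genes with probes called in opposite directions. From other lists the 2 largest rises and 2 largest falls past the test were named. Rpl19, Rps24 and Rpl22 by single probes, Myc, Eef1a1, Tpt1, Npm1, Eef1b2, Gnb2l1 and the genes low on healthy skin 3 were named after their values were seen. Some members that these rules name are not reported here. Alternatives were other scalings, normexp correction (offset 50), the deposited values, other filters, other ways to combine probes, a variance trend, array weights, blocks, and leaving out arrays.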

Additional observations from a re-analysis of the deposited data

How the results depend on the processing

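With every alternative that tested it, Rpl3l stayed lower. Requiring signal well above background on all 6 arrays removed it, leaving 0 genes lower, as did restricting the fit to features with a mean log2 signal of at least 6, chosen after seeing the data, which called 1 gene higher (Rps2), 0 lower and 110 features in all. Averaging probes gave 2 lower genes (Rpl22 and Rpl3l), and every probe by itself gave 1 higher and 3 lower. Slide row, read from the array names, gave as a block 3 higher (Rpl19, Rps2, Rps7) and 2 lower (Rpl3l, Rps15). Healthy skin 1 and 2 had row 1, and all tumors and healthy skin 3 had row 2. This row contrast therefore sets the tumors against healthy skin 3 alone, and row and group are largely confounded. The median over the members was 0.32 under median scaling and 0.70 under spike-in scaling. Features that differed numbered 6436, against 2524 under spike-in scaling, 3931 without a detection filter, 9872 with array weights and 3858 to 5470 leaving out 1 array; the lowest count was without tumor 2, and without healthy skin 2 it was 4074. Biogenesis genes higher numbered 14, against 29 under median scaling, 4 under spike-in scaling, 5 without a detection filter, 25 with array weights and 5 to 15 leaving out 1 array: 5 without tumor 1 or tumor 2, 6 without healthy skin 2, and 9 without healthy skin 1. With the replicate number as a block (a paired fit), 5486 features differed, 9 biogenesis genes were higher, and the calls among ribosomal protein genes were the same. The numbers were not taken to pair the samples. Deviations of same-numbered arrays correlated at 0.10, 0.13 and -0.08, and those of differently numbered arrays at -0.27 to 0.17. With 3 arrays in each group, such values cannot show whether samples are paired. Rpl3l, dim in tumors, was at -4.27 with normexp background correction, against -5.91.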
